A study of Mus musculus with 2 samples.

Results

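The 9 genes described here are the ligands *Osm*, *Il6* and *Il10*, the receptor chains *Il6ra*, *Il6st*, *Il10ra* and *Il10rb*, and the signalling genes *Stat3* and *Socs3*. They were chosen by symbol among the 27809 genes of a count matrix of CD45+ cells from mouse hearts, and all 9 were found in it. The cells came from male mice on a C57BL/6 background, 8 weeks old, 1 week after sham surgery or transverse aortic constriction (TAC), which narrows the aorta and raises the pressure load on the heart. The groups were wild-type (WT) mice after sham, CD3e-/- mice after sham, WT mice after TAC, CD3e-/- mice after TAC, and WT mice after TAC that were injected with an antibody against CD8. CD3e-/- mice lack the CD3 epsilon chain and with it mature T cells, both CD4+ and CD8+, so that a difference from WT mice is not one of CD8+ cells alone. Hashtags marked the cells of the 5 groups, which were pooled into 1 library and read by TAS-Seq, a method that reads the RNA of single cells captured on beads in microwells. The number of hearts pooled in each group is not given in the sources used here.

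IL-6 and oncostatin M bind receptors that share the chain gp130, encoded by *Il6st*, and gp130 hands the signal to Janus kinases and to STAT3. IL-10 binds a receptor built of the chains encoded by *Il10ra* and *Il10rb* and also signals through STAT3. STAT3 enters the nucleus and turns on genes that include *Socs3*, whose product binds gp130 and damps the signal of IL-6 far more than that of IL-10. In the heart, oncostatin M acts on cardiomyocytes and fibroblasts through a second receptor chain, and IL-10 is a product of macrophages that restrains inflammation.

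The sequence of one promoter shows where a STAT dimer could read the DNA of this axis. STAT dimers are known to bind palindromes of the form TTCNNNGAA, so this word and the tighter TTCCNGGAA were searched in RefSeq promoter windows of GRCm38.p6, 250 bases before to 50 bases after the start site, which were at hand for *Il6ra*, *Il6*, *Stat3*, *Socs3* and *Il6st*. Both words are their own reverse complement, so 1 search covers both strands. *Socs3* held TTCNNNGAA once, starting 154 bases before the start site of its window. The stretch is shown because *Socs3* is the textbook target of STAT3. It lies at chr11:117969502-117969530 on the minus strand, and capitals mark the palindrome.
Socs3: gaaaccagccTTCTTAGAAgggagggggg
The other 4 windows held neither word. Of 32851 promoter windows of 300 bases, 8.30% held TTCNNNGAA and 1.15% held TTCCNGGAA. A match is a match of letters and not a measured site, and the *Socs3* level given further on does not show whether it is bound.

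After the filters of the study, 1000 cells of WT sham, 835 of CD3e-/- sham, 1615 of WT TAC, 919 of CD3e-/- TAC and 894 of CD8-depleted TAC were kept, and values follow in this order wherever no group is named. The median reads per cell were 75442, 78372, 98869, 117788 and 98471. Each group was 1 sample, so no test could be made, and every comparison is between single samples. Levels are counts per 1000000 reads (CPM) from the summed reads of a group or class, and ranges in parentheses are exact 95% Poisson intervals for levels and ratios and Clopper-Pearson intervals for shares of cells. They cover counting error only and understate it, since the counts are reads and reads copied from 1 molecule are not independent. A ratio is called past the fold when it is 1.5 or more in either direction. Levels are compared between groups and classes for 1 gene, never between genes, since they were not set per length.

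Classes were gated on the CPM of single cells. Cells with *Csf1r* at 200 CPM or more and *Lyz2* at 1500 CPM or more were taken as monocytes and macrophages, which gave 556, 458, 1087, 664 and 603 cells. They were parted, in this order, into a Ly6c2 class (*Ly6c2* at 500 CPM or more, the mark of classical monocytes), a Spp1 class (*Spp1* at 1000 or more), a Lyve1 class (*Lyve1* at 100 or more, a mark of resident macrophages), a Ccr2-high class (*Ccr2* at 1000 or more) and a Ccr2-low class of the rest. Cells with *Cd209a* at 300 CPM or more formed a Cd209a class, and cells with *Cd79a* at 300 or more and little *Csf1r* a Cd79a class. Marker lists that shared no gene with the gates fitted the names. A list of 6 resident macrophage genes summed highest in the Lyve1 class at 6589 CPM, 6 monocyte genes in the Ly6c2 class at 6241 CPM, 6 cDC2 genes in the Cd209a class at 13132 CPM and 5 B cell genes in the Cd79a class at 4728 CPM. The cDC2 sum was mostly *H2-Ab1*, an MHC class II gene that macrophages also express, with 11164 CPM in the Cd209a class and 7092 of the 7776 CPM of the list in the Ccr2-high class. *Flt3*, a receptor of dendritic cells, stood at 113 CPM in the Cd209a class and 8.34 in the Ccr2-high class, and *Clec10a* at 296 and 43.6 CPM. Of 5 genes of Ly6c-low monocytes, *Ace*, *Cd300e* and *Eno3* were higher in the Ccr2-low than in the Ly6c2 class, and *Treml4* and *Nr4a1* were lower. The Ccr2-low class may thus hold monocytes too, and the Ly6c2 class is not a count of all monocytes. The limit of *Ccr2* was the least sharp, with 410 cells within 1.25-fold of it. No level is given for a class with fewer than 20 cells in a group, which leaves out the Spp1 class in both sham groups and the Lyve1 class in CD3e-/- TAC.

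The labels were checked by T cell genes. *Cd3e*, the gene deleted in CD3e-/- mice, stood at 17.8, 3.73, 10.8, 5.64 and 13.6 CPM over all kept cells. Its level was lower in CD3e-/- than in WT mice after either operation, but the share of cells with a read was not clearly so, at 6.9% (5.41% to 8.65%), 5.03% (3.65% to 6.74%), 6.38% (5.24% to 7.68%), 9.03% (7.26% to 11.1%) and 5.70% (4.28% to 7.43%). Where these reads lie relative to the deleted part of the gene is not given in the sources used here, so *Cd3e* does not settle the label. *Cd3g*, a further chain of the CD3 complex, stood at 45.6 CPM in WT sham, 0.555 in CD3e-/- sham, 17.5 in WT TAC, 0.0661 in CD3e-/- TAC and 22.5 CPM in CD8-depleted TAC. Cells with reads of *Cd3g* and of *Cd8a* or *Cd8b1* numbered 8, 0, 11, 0 and 4. Under the label CD8-depleted TAC these were 0.447% (0.122% to 1.14%) of the kept cells, against 0.681% (0.340% to 1.22%) in WT TAC, so a loss of CD8+ cells was not detectable at this depth. Any direction drawn from this group rests on the label alone, so it is called by that label.

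Over monocytes and macrophages, the members past the fold are given for each of 5 comparisons beside the share of all genes past it there. The share of all genes past it in any of the 5 is not given, so members are not counted over the comparisons together. In WT TAC over WT sham, *Osm* and *Stat3* were past the fold higher and *Il6* lower, where 6.36% of 9211 genes at 10 CPM or more in at least 1 of both groups were past it higher and 5.38% lower. In CD3e-/- TAC over CD3e-/- sham only *Stat3* was past it, higher, against a background of 8.96% higher and 6.31% lower. In CD3e-/- sham over WT sham, *Osm* and *Il10* were past it higher, against 3.89%, and *Il6* lower, against 6.66%. *Il10* stayed under 10 CPM in every group, however, and was thus outside the genes of that background. In CD3e-/- TAC over WT TAC only *Il6* was past it, higher, against 2% higher and 2.35% lower. In the group labelled CD8-depleted TAC over WT TAC none was past it, against 1.52% higher and 1.35% lower. The median ratio of the 9 genes was 1.09, 1.12, 1.00, 1.05 and 1.00 in these comparisons, and that of all genes at this level 1.02, 1.04, 0.979, 0.995 and 1.00. These comparisons share samples, since WT TAC stands in 3 of them, so their values are given side by side and not as independent results.

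**Figure D1:**
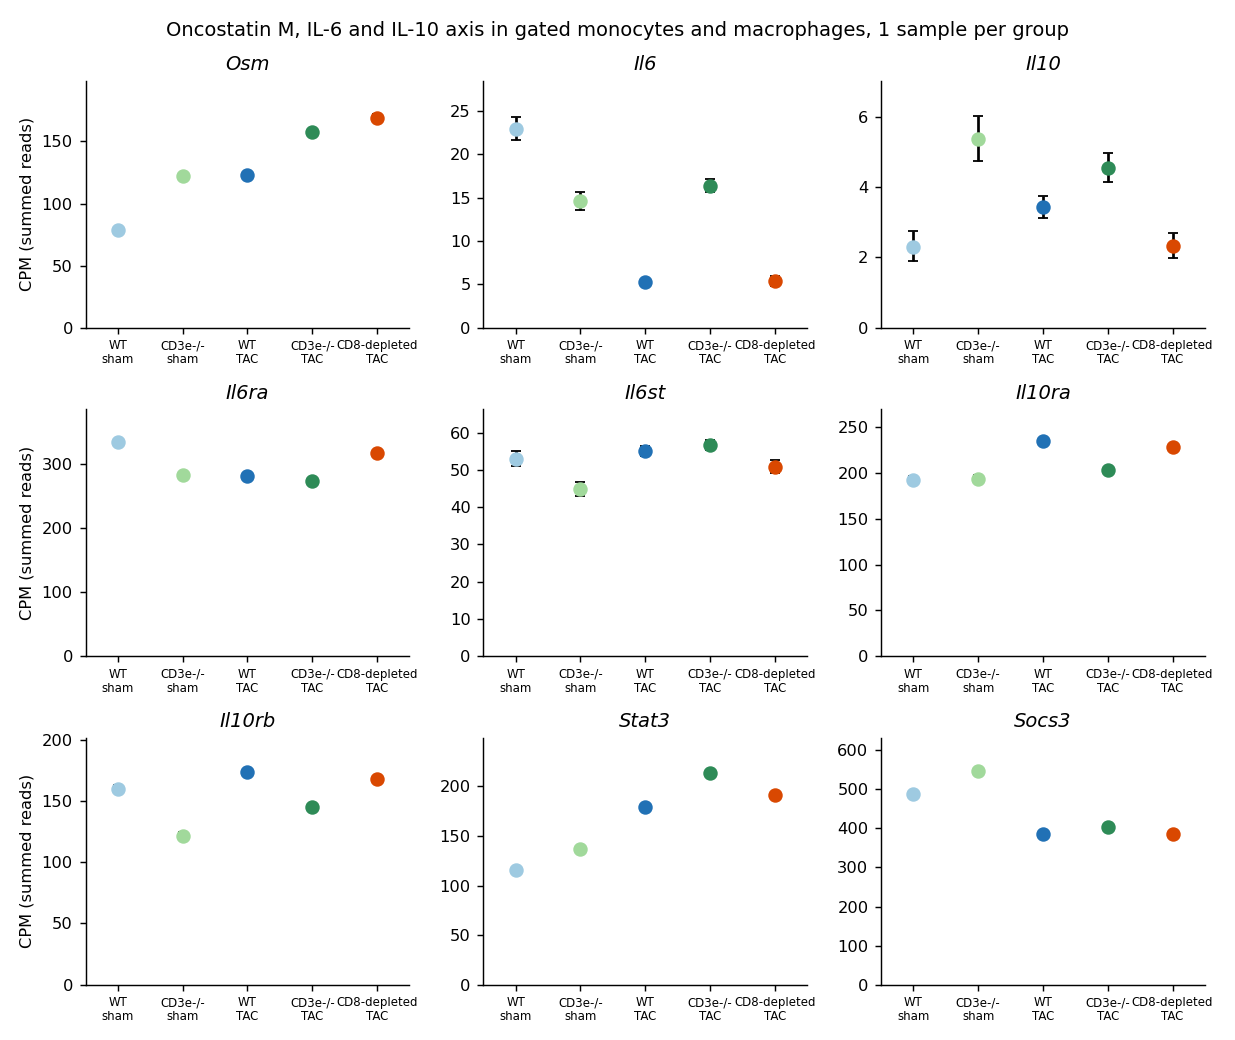
Level of each of the 9 genes in monocytes and macrophages, in CPM on a separate axis starting at 0 for each gene, for the 5 groups of 1 sample each. Points are summed reads in CPM and lines are exact 95% Poisson intervals, which for most genes are narrower than the point. *Osm* was lowest in WT sham at 78.7 CPM and highest in the group labelled CD8-depleted TAC at 169 CPM, and *Stat3* was lower in both sham groups than in the 3 TAC groups.

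*Osm*, which encodes oncostatin M, stood at 78.7, 122, 123, 158 and 169 CPM in monocytes and macrophages. The lowest level was that of WT sham, while CD3e-/- sham and WT TAC had like values, and CD3e-/- TAC and the group labelled CD8-depleted TAC were the highest. The ratio was 1.56 (1.51 to 1.62) for WT TAC over WT sham and 1.30 (1.26 to 1.33) for CD3e-/- TAC over CD3e-/- sham. CD3e-/- mice exceeded WT mice 1.55-fold (1.49 to 1.61) after sham and 1.29-fold (1.26 to 1.31) after TAC. The group labelled CD8-depleted TAC exceeded WT TAC 1.37-fold (1.34 to 1.41). The ratio to WT TAC was thus above 1 but short of the fold in both groups.

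The share of cells with *Osm* differed between the groups. With each cell thinned to 38677 reads, *Osm* reads were found in 16.5% (13.3% to 20.2%), 22.6% (18.6% to 27.0%), 26.4% (23.7% to 29.3%), 34.9% (31.2% to 38.8%) and 32.6% (28.7% to 36.6%) of monocytes and macrophages. In the Cd79a class, which is B cell-like and should lack *Osm*, the share was between 0% and 4.35%. Thinning left out 90, 60, 100, 43 and 44 shallower cells, and the shares of all cells without thinning were 13.8%, 20.7%, 24.7%, 33.9% and 31.0%. No cell in the matrix held 1 to 5 reads of *Osm*, so cells with few reads of it are not seen. Cells with *Osm* reads numbered 77, 95, 269, 225 and 187 before thinning and 77, 90, 261, 217 and 182 after it. Thinning thus hardly matched depth for this gene, and the part of depth in its shares was not tested. A stricter limit of 250 CPM in the same cells, chosen after seeing the data, gave 9.01%, 13.8%, 13.8%, 18.7% and 19.5%. In the cells past that limit, which *Osm* itself selects, the median was 515, 568, 562, 560.4 and 570 CPM, and in those of the Ccr2-high class 610.1, 637, 449, 524 and 442 CPM. *Osm* was held by few cells, and 13, 17, 41, 42 and 31 of them carried 50% of its reads.

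By class, *Osm* was highest in the Ly6c2 class among monocytes and macrophages. Pooled over the groups it stood at 319 CPM (315 to 323) in the Ly6c2 class, 198 in the Spp1 class, 107 in the Ccr2-high class, 63.6 in the Ccr2-low class and 10.7 in the Lyve1 class. The Cd209a class had 68.7 CPM, near that of the Ccr2-low class, and the Cd79a class 6.86 CPM. In the Spp1 class *Osm* stood at 159, 169 and 313 CPM in WT TAC, CD3e-/- TAC and CD8-depleted TAC, and the last rests on 30 cells, of which 3 held 50% of the reads. In the Cd209a class it stood at 58.0, 65.7, 61.6, 73.0 and 101 CPM, where CD8-depleted TAC was again the highest by label. The Ly6c2 class held 33.9% of all *Osm* reads in 519 of 5263 cells. The resident macrophages of the Lyve1 class were low in *Osm* in every group with a value, between 3.67 and 15.6 CPM.

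Within the Ly6c2 class the groups differed less than in the summed level. The ratio of *Osm* to WT TAC in this class was 0.883 (0.854 to 0.912) in CD3e-/- TAC. In the group labelled CD8-depleted TAC it was 1.20 (1.16 to 1.24), so these groups lay on opposite sides of WT TAC. *Osm* stood at 303, 341, 315, 278 and 379 CPM there, and 66.7%, 63.6%, 59.1%, 59.6% and 65.7% of its cells had *Osm* reads after thinning, with intervals that overlap. WT sham had the fewest cells in this class, 24, so its level rests on 914 reads in 16 cells. In the Ccr2-high class the levels were 93.5, 114, 106, 119 and 99.8 CPM. In the Ccr2-low class they were 42.9, 71.3, 45.0, 98.8 and 63.8 CPM, with CD3e-/- mice above WT mice after either operation, by 1.66 (1.53 to 1.81) after sham and 2.20 (2.07 to 2.33) after TAC. The highest of these, in CD3e-/- TAC, rested on few cells, since 4 of its 201 cells held 50% of the reads. The sham values rested on few cells too, with *Osm* reads in 23 thinned Ccr2-low cells of each sham group. These were 9.91% (6.39% to 14.5%) in WT sham and 13.6% (8.83% to 19.7%) in CD3e-/- sham, with intervals that overlap. With the cells high in *Arg1* left out, as described further on, the ratio of 2.20 became 1.27.

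**Figure D2:**
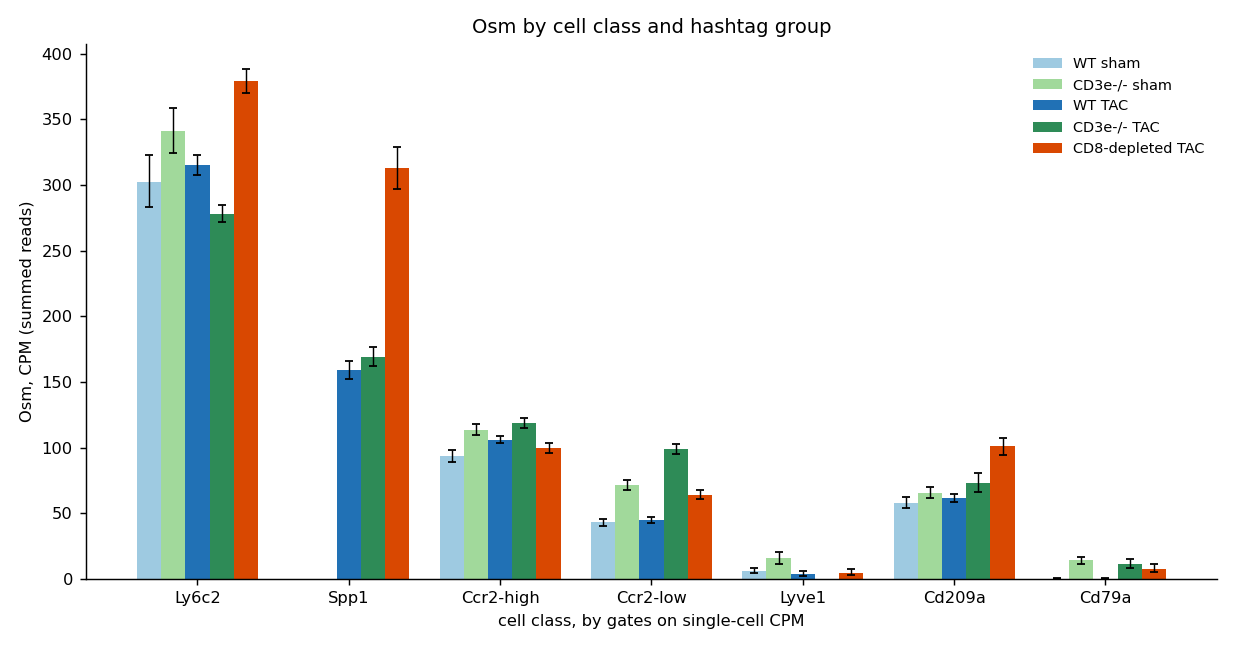
*Osm* level in CPM by class of monocytes and macrophages and in the Cd209a and Cd79a classes, for the 5 groups. Bars are summed reads in CPM and lines are exact 95% Poisson intervals, and classes under 20 cells in a group are left out. The Ly6c2 class lies between 278 and 379 CPM in all groups, above each value of the Ccr2-high, Ccr2-low and Lyve1 classes.

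The share of the Ly6c2 class among these cells was, like *Osm*, lowest in WT sham and highest in CD3e-/- TAC and the group labelled CD8-depleted TAC. It did not follow *Osm* step by step, since CD3e-/- sham and WT TAC had like *Osm* levels but differed in this share. The Ly6c2 class made up 4.32%, 7.42%, 14.3%, 24.8% and 23.4% of monocytes and macrophages, and the Lyve1 class 13.3%, 6.77%, 4.60%, 1.96% and 5.14%. To separate both, each comparison was repeated with the class make-up of 1 group given to the other, over the classes with at least 20 cells in both. For WT TAC over WT sham the ratio over 4 classes was 1.67 as measured, 1.08 with the same make-up and 1.55 from make-up alone. For CD3e-/- TAC over CD3e-/- sham, over 3 classes, the values were 1.35, 1.06 and 1.42. For CD3e-/- sham over WT sham they were 1.58, 1.33 and 1.24, so a ratio above 1 remained with the same make-up. That remainder rests on few cells with *Osm* reads, as given above for the Ccr2-low class. Against WT TAC, the ratio of CD3e-/- TAC over 4 classes went from 1.27 to 1.13, and that of the group labelled CD8-depleted TAC over 5 classes from 1.37 to 1.22. A different make-up of classes and more *Osm* RNA per cell cannot be told apart in the summed level, while the class-wise values above hold the classes apart.

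**Figure D3:**
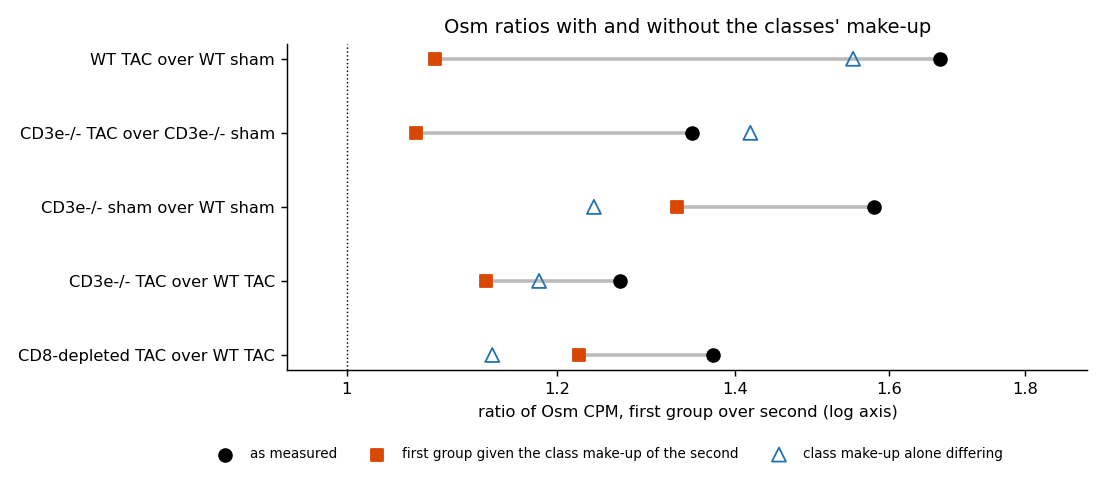
Ratio of *Osm* in 5 comparisons, on a log axis, as measured over the classes used, with the same class make-up in both groups, and from the class make-up alone. A line marks a ratio of 1, and WT TAC over WT sham goes from 1.67 as measured to 1.08 with the same make-up.

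Cells high in *Arg1*, a gene of alternatively activated macrophages that splits arginine, held a large part of *Osm* after TAC. Cells of 250 CPM or more of *Arg1*, a limit chosen after seeing the data, numbered 3, 1, 70, 69 and 25 among monocytes and macrophages. They were 6.44% of these cells in WT TAC, 10.4% in CD3e-/- TAC and 4.15% in CD8-depleted TAC. They held 26.4%, 31.7% and 11.0% of the *Osm* reads of monocytes and macrophages in the same 3 groups, at 336 (326 to 346), 266 (259 to 273) and 289 (274 to 304) CPM. *Osm* in the other cells was 77.5, 122, 100.2, 133 and 161 CPM. The group labelled CD8-depleted TAC thus had the highest level outside these cells. Without the cells high in *Arg1*, WT TAC over WT sham was 1.29 and no longer past the fold, and the group labelled CD8-depleted TAC over WT TAC was 1.60 and past it.

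Neutrophils, which are rich in *Osm*, were looked for among the gated cells. A separate neutrophil-like class of 39 cells, taken from the cells outside the gates, had *Osm* at 499 CPM. The 5 neutrophil genes *S100a8*, *S100a9*, *Csf3r*, *Retnlg* and *Cxcr2* together stood at 42646 CPM in that class and at 63.5, 150.2, 161, 139 and 242 CPM in monocytes and macrophages. *S100a8*, *S100a9* and *Retnlg* were at 0 there in WT sham. With cells of 250 CPM or more of *S100a8* or *S100a9* left out, which were 0, 1, 6, 10 and 4 cells, the ratios of *Osm* were 1.55 for WT TAC over WT sham, 1.30 for CD3e-/- TAC over WT TAC and 1.39 for CD8-depleted TAC over WT TAC, about as large as with them.

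*Il6*, which encodes interleukin-6, stood at 23.0, 14.6, 5.23, 16.4 and 5.36 CPM in monocytes and macrophages. It was lower in WT TAC than in WT sham, with a ratio of 0.227 (0.207 to 0.25), while CD3e-/- TAC over CD3e-/- sham was 1.12 (1.03 to 1.22). After TAC, CD3e-/- mice exceeded WT mice 3.13-fold (2.87 to 3.42), and the group labelled CD8-depleted TAC had a ratio of 1.03 (0.905 to 1.16). These levels came from very few cells. *Il6* reads were found in 12, 21, 14, 20 and 11 cells, and 50% of the reads lay in 2, 5, 3, 4 and 1 of them. No direction of the summed level is firm with so few cells, and the ratio of CD3e-/- sham over WT sham, 0.636 by sums, was 1.22 when single cells were averaged.

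The share of cells with *Il6* is less bound to single cells of high count. After thinning it was 2.58% (1.34% to 4.45%), 5.28% (3.30% to 7.95%), 1.42% (0.778% to 2.37%), 3.22% (1.98% to 4.93%) and 1.43% (0.620% to 2.80%) of monocytes and macrophages, and 2.16%, 4.59%, 1.29%, 3.01% and 1.82% of all of them without thinning. CD3e-/- sham lay above WT TAC and above the group labelled CD8-depleted TAC with intervals that do not overlap, and the other intervals overlapped. In the Cd79a class 1 group had a cell with a read, WT sham at 1.69%, and the other groups had 0%. *Il6* was also found in the Cd209a class, at 79.9, 55.6, 7.64, 20.7 and 0 CPM. There it was read in 12.6% (6.48% to 21.5%) and 21.3% (12.7% to 32.3%) of the thinned cells of the sham groups, and in 5.65% (2.30% to 11.3%), 6.25% (0.766% to 20.8%) and 0% (0% to 6.60%) after TAC. Both sham shares were thus above those of the TAC groups, and the interval of CD3e-/- sham lay clear of those of WT TAC and the group labelled CD8-depleted TAC. In the group labelled CD8-depleted TAC, 0 reads in the summed Cd209a class allow a level of up to 0.304 CPM.

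*Il10*, which encodes interleukin-10, was read rarely. It stood at 2.31, 5.36, 3.43, 4.54 and 2.33 CPM in monocytes and macrophages, below 10 CPM in every group. Cells with a read numbered 11, 8, 29, 37 and 22, and 50% of the reads lay in 1, 2, 4, 4 and 2 of them. The 10 cells with the most reads held 99.2%, 100%, 88.3%, 82.3% and 91.9% of them. The ratio was 1.49 (1.21 to 1.83) for WT TAC over WT sham, 2.33 (1.87 to 2.91) for CD3e-/- sham over WT sham and 1.32 (1.16 to 1.51) for CD3e-/- TAC over WT TAC. For the group labelled CD8-depleted TAC over WT TAC it was 0.679 (0.567 to 0.810).

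The share of cells with *Il10* was low in every group. After thinning it was 1.29% (0.474% to 2.78%), 1.76% (0.710% to 3.59%), 1.93% (1.16% to 2.99%), 3.38% (2.11% to 5.12%) and 2.68% (1.51% to 4.39%), with intervals that all overlap. Without thinning it was 1.98% (0.992% to 3.51%), 1.75% (0.757% to 3.41%), 2.67% (1.79% to 3.81%), 5.57% (3.95% to 7.60%) and 3.65% (2.30% to 5.47%), where CD3e-/- TAC, the group with the most reads per cell, lay above both sham groups and WT TAC with an interval that does not overlap theirs. In the Cd79a class it was, after thinning, 0%, 2.53%, 0%, 1.85% and 2.17%, so the thinned share in monocytes and macrophages was not clearly above that in cells of another type. At the thinned depth, differences of *Il10* between groups were not detectable, and its class-wise levels rest on single cells. In the Ccr2-high class of CD3e-/- sham, for example, 1 cell held 50% of the reads.

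*Il6ra*, the chain that binds IL-6, varied little between groups. It stood at 334, 283, 282, 274 and 318 CPM in monocytes and macrophages, with WT sham the highest and CD3e-/- TAC the lowest. WT TAC over WT sham was 0.845 (0.830 to 0.860), CD3e-/- TAC over WT TAC was 0.969 (0.955 to 0.984) and the group labelled CD8-depleted TAC over WT TAC was 1.13 (1.11 to 1.14). Pooled over groups it was 352 CPM in the Ly6c2 class, between 279.5 and 312 CPM in the Ccr2-high, Ccr2-low and Lyve1 classes, 261 CPM in the Cd209a class, 177 CPM in the Spp1 class and 78.6 CPM in the Cd79a class. The Ly6c2 class of CD3e-/- sham was the highest at 530.0 CPM, against 417 CPM in WT sham and 335 to 339.7 CPM in the 3 TAC groups. After thinning, *Il6ra* was read in 78.9% to 88.2% of monocytes and macrophages, against 23.9% to 40.7% of the Cd79a class.

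*Il6st*, the gp130 chain that IL-6 and oncostatin M share, stood at 53.0, 44.8, 55.1, 56.6 and 50.9 CPM in monocytes and macrophages. No ratio was past the fold, and the farthest from 1 was 1.26 (1.21 to 1.33) for CD3e-/- TAC over CD3e-/- sham. Unlike *Il6ra*, it was higher in the Cd209a class than in monocytes and macrophages. It stood at 98.5, 75.8, 90.3, 63.6 and 124 CPM there, and the cells of no class had 113 CPM pooled over groups. Monocytes and macrophages held 57.9% of its reads, against 76.9% for *Il6ra*. Among them the Lyve1 class was the highest with 71.6 CPM (68.1 to 75.3), followed by the Ly6c2 class with 59.9 CPM (58.2 to 61.7).

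Reads of both IL-6 receptor chains in 1 cell were found in 27.0% (23.1% to 31.3%), 26.9% (22.6% to 31.5%), 29.6% (26.8% to 32.5%), 31.1% (27.5% to 34.9%) and 30.6% (26.8% to 34.6%) of thinned monocytes and macrophages. In the Cd79a class the share was between 1.72% and 8.70%. The intervals of all 5 groups overlap, so no difference was detectable. In the Cd209a class the share was higher, between 37.5% and 55.2%.

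*Il10ra*, the chain that binds IL-10, stood at 193, 194, 234, 204 and 228 CPM in monocytes and macrophages. WT TAC exceeded WT sham 1.22-fold (1.19 to 1.24), and CD3e-/- TAC stood at 0.868 (0.853 to 0.883) of WT TAC. The levels of the classes were near each other, with 221, 222 and 229.9 CPM pooled in the Ly6c2, Ccr2-high and Ccr2-low classes and 186 CPM in the Lyve1 class. The Spp1 class was lower with 142 CPM, and B cells of the Cd79a class had 124 CPM.

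*Il10rb*, the second chain, which other cytokines of the family share, was higher in the Lyve1 and Ccr2-low classes than in the Ly6c2 class. It stood at 159.6, 122, 174, 145 and 168 CPM in monocytes and macrophages. In both operations CD3e-/- mice were below WT mice, with ratios of 0.762 (0.738 to 0.788) after sham and 0.833 (0.816 to 0.850) after TAC, short of the fold. In the Lyve1 class the levels were 216, 176 and 273 CPM in WT sham, CD3e-/- sham and WT TAC and 242 CPM in CD8-depleted TAC. In the Ccr2-low class they were 193, 160.1, 237, 188 and 216 CPM, in the Ccr2-high class 92.6, 92.8, 137, 127 and 145 CPM and in the Ly6c2 class 115, 49.9, 122, 102 and 125 CPM. The order of the classes, Lyve1 and Ccr2-low above Ccr2-high and Ly6c2, was the same in every group with values.

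TAC groups were higher than their sham groups in *Il10rb* in each of these classes, though in the Ly6c2 class of WT mice by 1.06 (0.944 to 1.18) only, and the summed level moved less. With the same class make-up, WT TAC over WT sham was 1.28 over 4 classes, against 1.09 as measured, and CD3e-/- TAC over CD3e-/- sham was 1.29 over 3 classes, against 1.21. Reads of both IL-10 receptor chains were found in 51.3% (46.6% to 55.9%), 49.0% (44.0% to 54.0%), 61.3% (58.2% to 64.3%), 61.8% (57.9% to 65.7%) and 61.0% (56.8% to 65.1%) of thinned monocytes and macrophages. The 3 TAC groups were above both sham groups with intervals that do not overlap, and they did not differ from each other beyond counting error. In the Cd79a class the share was between 10.9% and 20.7%. Thinning matched the reads of the cells and not the molecules captured, so the part of depth in this share was not tested.

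**Figure D4:**
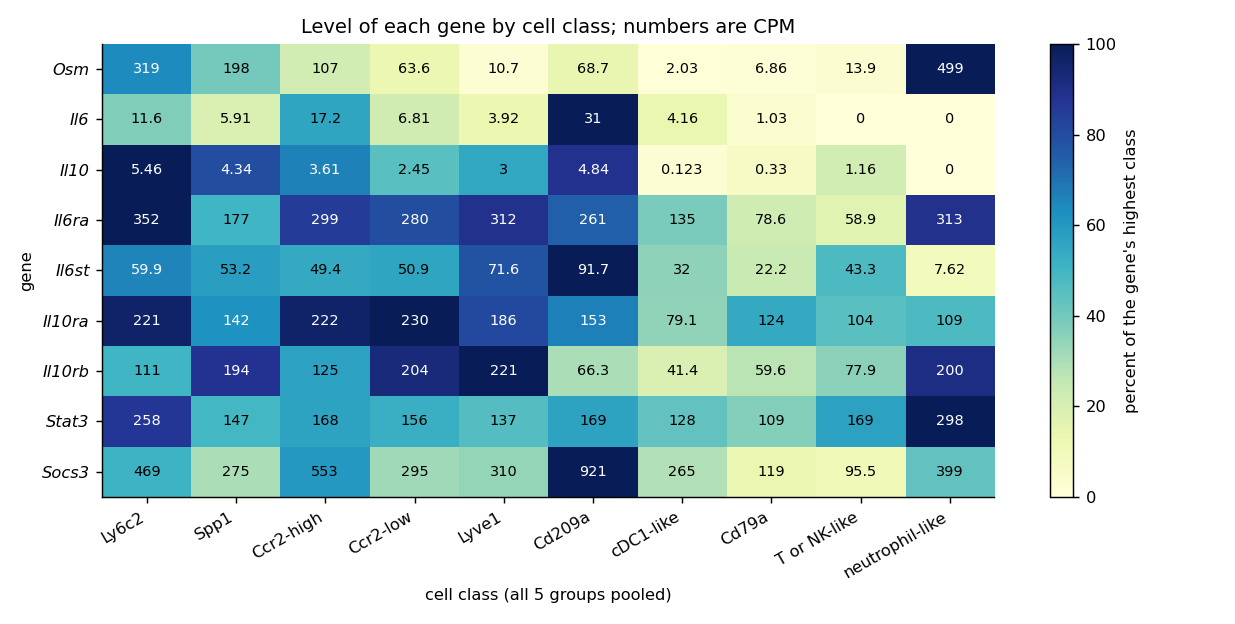
Level of the 9 genes in the classes of cells, pooled over the 5 groups. Numbers are CPM, and the colour is the percent of the highest class of the gene. Among the classes of monocytes and macrophages *Osm* is highest in the Ly6c2 class at 319 CPM, while the 39 neutrophil-like cells have 499 CPM, and over all classes shown *Socs3* is highest in the Cd209a class at 921 CPM and *Il10rb* in the Lyve1 class at 221 CPM.

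*Stat3*, the transcription factor on which these receptors meet, stood at 115, 136, 179.7, 213 and 191 CPM in monocytes and macrophages. Each TAC group was above both sham groups. The ratio of TAC to sham was 1.56 (1.51 to 1.60) in WT mice and 1.56 (1.52 to 1.61) in CD3e-/- mice, nearly equal in both. CD3e-/- mice were higher than WT mice 1.18-fold (1.14 to 1.22) after sham and 1.19-fold (1.17 to 1.21) after TAC. The group labelled CD8-depleted TAC over WT TAC was 1.06 (1.04 to 1.09).

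In WT and CD3e-/- mice, the difference in *Stat3* between TAC and sham lay mostly within the classes. With the same class make-up the ratio was 1.46 in WT mice and 1.51 in CD3e-/- mice, against 1.56 and 1.59 as measured over the same classes. The Ly6c2 class had 224, 201, 263, 255 and 276 CPM, the Ccr2-high class 111, 134, 164, 206 and 193 CPM and the Ccr2-low class 113, 126, 173, 199 and 139 CPM. In the Ccr2-high class TAC over sham was 1.47 (1.40 to 1.55) in WT mice and 1.54 (1.47 to 1.60) in CD3e-/- mice, and in the Ccr2-low class it was 1.53 (1.46 to 1.60) and 1.58 (1.5 to 1.66). In the Ly6c2 class, where *Stat3* was the highest of the classes of monocytes and macrophages, the ratios were smaller, with 1.17 (1.08 to 1.27) and 1.27 (1.18 to 1.36). B cells of the Cd79a class did not share it, with 121, 102, 104, 107 and 116 CPM.

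More cells held *Stat3* as well. After thinning, its reads were found in 52.8% (48.1% to 57.4%), 59.0% (54.0% to 63.9%), 68.4% (65.4% to 71.3%), 79.4% (76.0% to 82.5%) and 66.4% (62.3% to 70.3%) of monocytes and macrophages. CD3e-/- TAC was above each other group with an interval that overlaps none of them. By class, WT TAC and CD3e-/- TAC had 87.0% and 87.6% in the Ly6c2 class and 71.8% and 72.4% in the Spp1 class. They had 64.3% and 81.2% in the Ccr2-high class, with intervals that do not overlap. In the Ccr2-low class they had 64.5% and 71.2%, with intervals that overlap, while CD8-depleted TAC had 49.2% and WT sham 49.1% there. In the Cd79a class the share was between 37.0% and 44.3%. Without thinning the shares were 52.2%, 63.5%, 72.5%, 82.2% and 70.3%. Cells at 250 CPM or more were 17.6%, 21.6%, 26.7%, 34.0% and 29.9% of monocytes and macrophages.

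*Socs3*, the inhibitor that STAT3 induces, did not follow *Stat3*. It stood at 488, 547, 386, 404 and 387 CPM in monocytes and macrophages, higher in both sham groups than in the 3 TAC groups. TAC over sham was 0.790 (0.778 to 0.802) in WT mice and 0.740 (0.729 to 0.751) in CD3e-/- mice, short of the fold. The 3 TAC groups lay within 386 to 404 CPM of each other. With the same class make-up the ratio was 0.672 in WT mice and 0.775 in CD3e-/- mice, against 0.822 and 0.769 as measured over the same classes.

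The share of cells with any *Socs3* read was higher in CD3e-/- mice. After thinning it was 50.4% (45.8% to 55.1%), 60.3% (55.3% to 65.1%), 53.2% (50.02% to 56.3%), 63.0% (59.0% to 66.8%) and 51.9% (47.6% to 56.1%) of monocytes and macrophages. CD3e-/- mice were above WT mice after sham and after TAC with intervals that do not overlap, while TAC and sham of 1 genotype overlapped. Without thinning the shares were 46.2%, 56.1%, 50.1%, 61.0% and 49.8%. Cells at 250 CPM or more were 40.8% (36.3% to 45.4%), 46.7% (41.7% to 51.8%), 35.4% (32.4% to 38.4%), 42.2% (38.3% to 46.2%) and 37.0%. At that limit the intervals of both genotypes overlapped after sham and after TAC. By class after TAC, thinned shares in WT and CD3e-/- mice were 74.7% and 73.9% in the Ly6c2 class and 60.5% and 63.8% in the Ccr2-high class. They were 53.5% and 58.6% in the Spp1 class. In the Ccr2-low class they were 34.9% and 53.1%, with intervals that do not overlap, so a difference was also seen within this class. The share over all these cells does not hold class make-up equal.

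The class with the most *Socs3* was the Cd209a class, with 1159, 946, 942, 748 and 638 CPM, where 81.2% to 92% of thinned cells had reads. The Ccr2-high class had 725, 646, 520.4, 486 and 520.1 CPM and the Ly6c2 class 685, 738, 495, 420.2 and 410.3 CPM. TAC groups were lower than their sham groups in all 3 classes. The Ccr2-low class stood at 344, 381, 209, 352 and 244 CPM, where CD3e-/- TAC exceeded WT TAC 1.68-fold (1.63 to 1.73). This one also showed in the share of cells, with *Socs3* reads in 53.1% (45.5% to 60.6%) of Ccr2-low cells of CD3e-/- TAC, 34.9% (29.5% to 40.6%) of WT TAC and 33.5% (26.7% to 40.9%) of CD8-depleted TAC. The Cd79a class had 20.1 to 212 CPM.

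Genes known to respond to tissue digestion were lower after TAC than after sham, as *Socs3* was. The 12 genes *Fos*, *Fosb*, *Jun*, *Junb*, *Egr1*, *Ier2*, *Atf3*, *Hspa1a*, *Hspa1b*, *Dusp1*, *Nr4a1* and *Zfp36* together stood at 18127, 16460, 9442, 8550.0 and 9503 CPM in monocytes and macrophages. In WT TAC over WT sham 12 of 12 were past the fold lower, where 5.38% of all genes were, and in CD3e-/- TAC over CD3e-/- sham 10 of 12, where 6.31% of all genes were. Between genotypes, CD3e-/- mice had the lower sum and the higher *Socs3* after sham and after TAC. The 12 genes were not alike in this, and their median ratio of CD3e-/- to WT mice was 0.909 after sham and 0.926 after TAC. *Fos* had 0.890 and 0.855, while *Atf3* had 1.27 and 1.09 and *Nr4a1* 1.13 and 1.85. In the Ccr2-low class after TAC, where *Socs3* was 1.68-fold higher in CD3e-/- mice, the sum was 6860 CPM against 7456 CPM in WT mice. *Atf3* was also among the 3 genes whose pattern was most like that of *Socs3*. The part of digestion in the levels of *Socs3* was not tested.

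**Figure D5:**
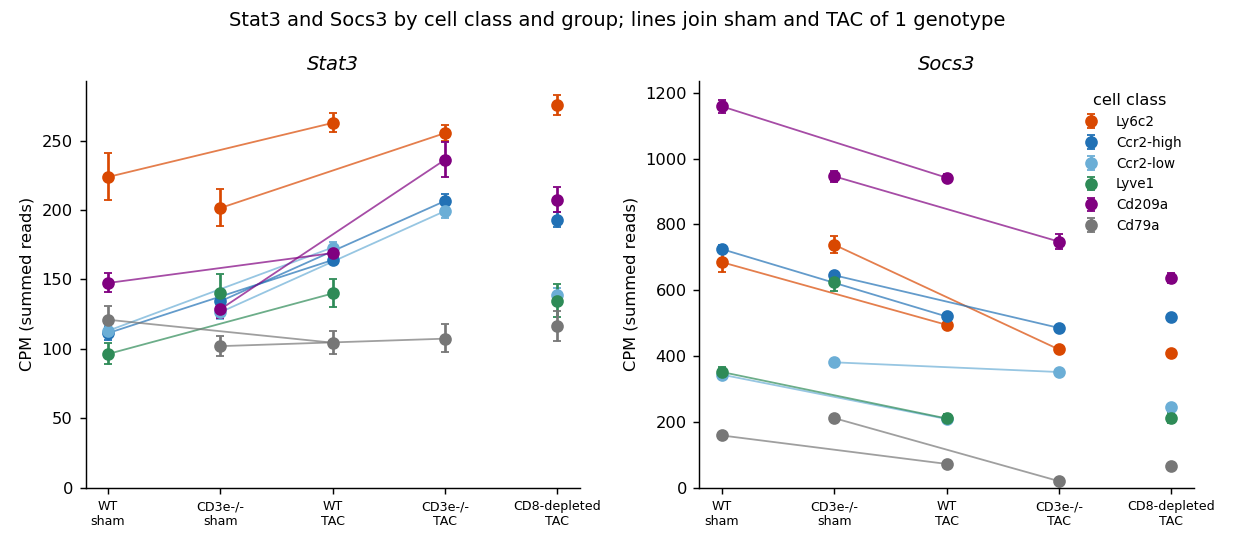
*Stat3* and *Socs3* level in CPM by class for the 5 groups, with exact 95% Poisson intervals, where lines join sham and TAC of 1 genotype. In the Ccr2-high class *Stat3* goes from 111 CPM in WT sham to 164 CPM in WT TAC and *Socs3* from 725 to 520.4 CPM.

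The other genes of the pathway were followed as lists in monocytes and macrophages. Of 8 further ligands of the IL-6 family 1 or 2 reached 10 CPM in a comparison, led by *Ebi3*, a subunit of IL-27 and IL-35, at 63.4, 56.6, 45.4, 32.5 and 32.6 CPM. *Ebi3* was past the fold lower in CD3e-/- TAC over CD3e-/- sham, where 6.31% of all genes were. *Il27*, its partner in IL-27, was past the fold higher in the group labelled CD8-depleted TAC over WT TAC, at 11.2 against 5.69 CPM. In that comparison 1.52% of all genes were past it higher. Of 8 further receptor chains, 2 reached 10 CPM. Both were past the fold lower in WT TAC over WT sham, where 5.38% of all genes were. They were *Lifr*, the receptor of LIF that also serves oncostatin M, at 174, 107, 91.1, 79.2 and 102 CPM, and *Il11ra1*, the receptor of IL-11, at 33.4, 24.5, 18.9, 19.2 and 19.5 CPM. *Lifr* was also past the fold lower in CD3e-/- sham over WT sham, where 6.66% of all genes were. *Osmr*, the second receptor chain of oncostatin M, averaged 0.387 CPM over the groups. Of 4 further ligands of the IL-10 family only *Il22* was in the matrix, with 0 reads in these cells.

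Of 13 kinases, STATs and inhibitors, 1 was past the fold higher and 2 lower in WT TAC over WT sham. The background of all genes was 6.36% higher and 5.38% lower there. In CD3e-/- TAC over CD3e-/- sham 1 was past it higher and 1 lower, against a background of 8.96% and 6.31%. None of the 13 was past it in the other 3 comparisons, where 1.35% to 6.66% of all genes were in either direction. *Jak1*, a kinase of all these receptors, was level at 284, 281, 284, 280.5 and 293 CPM, and *Stat6* was level too, between 116 and 124 CPM. Outside the rule for named genes, and chosen after their values were seen, *Jak2* was the gene past the fold higher in WT mice, at 36.2 and 58.6 CPM, and *Cish*, an inhibitor of STAT5 signals, was lower in both TAC comparisons, at 19.5, 21.5, 9.72 and 11.6 CPM in the first 4 groups. The inhibitor *Pias3* was the other gene lower in WT mice, at 18.4 and 11.7 CPM.

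Among 16 genes known as STAT3 targets, 6 were past the fold higher and 2 lower in WT TAC over WT sham, and 5 higher and 3 lower in CD3e-/- TAC over CD3e-/- sham. Of all genes, 6.36% were past it higher and 5.38% lower in WT mice, and 8.96% higher and 6.31% lower in CD3e-/- mice. The median ratio of the 16 genes was 1.17 and 1.13, against 1.02 and 1.04 for all genes. The genes with the most reads were *Fos* at 4649, 4138, 2720.2, 2326 and 2673 CPM and *Junb* at 1739, 1730.4, 1035, 1043 and 1075 CPM, which were the 2 lower in WT mice and are also digestion genes. *Mcl1*, a survival gene, was level at 754, 878, 765, 807 and 790.5 CPM. *Pim1*, a kinase, stood at 532, 670, 448, 562 and 525 CPM. In the other 3 comparisons 1, 1 and 2 of the genes were past the fold, all higher, against 3.89%, 2% and 1.52% of all genes. *Saa3*, a serum amyloid, was the 1 in CD3e-/- TAC over WT TAC, and, like *Osmr* and *Prdm1*, was named after its values were seen. It stood at 7.07, 6.90, 13.2, 1197 and 121 CPM.

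Of 5 regulators of *Il10* none was past the fold in any comparison but *Prdm1* in CD3e-/- sham over WT sham. *Prdm1* was lower there, at 17.4 against 44.8 CPM, in a comparison where 6.66% of all genes were past the fold lower. *Maf*, a factor that drives *Il10* in macrophages, stood at 603, 440.4, 471, 388 and 496 CPM.

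The genes whose pattern was most like that of a member were sought over 32 sums of a class in a group, among 10394 genes, with Pearson's r of log2(CPM + 10). These sums share 1 library and differ in depth and cell number, so r is a description. For *Osm* they included *Pkm*, a glycolytic enzyme, with 0.94 and *Sirpb1c*, a myeloid receptor, with 0.92. For *Socs3* they were *Zyx*, *Zfand5* and *Atf3*, each with 0.92. For *Il10* the best were weak, namely *Tiam2* with 0.69, *Slc22a15* with 0.69 and *Serpinb6b* with 0.68. Among the members, *Il6ra* and *Socs3* were the closest pair with 0.81, followed by *Il6ra* and *Il6st* with 0.74, while *Osm* and *Stat3* had 0.71 and *Socs3* and *Stat3* 0.45. *Il10rb* stood apart from *Il6*, with -0.25.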

How the data were processed

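CD45+ cells were enriched from digested hearts by Percoll and magnetic selection, captured on the BD Rhapsody system and sequenced after TAS-Seq amplification. The authors deposited counts of reads per gene and cell barcode without normalization, after a cut at the inflection point, error correction by the distribution of reads and hashtag assignment. Among their tools, the submitters' processing notes name cutadapt 2.10 and Bowtie2 2.4.2. The build of the count matrix is not given in the sources used here. The notes that accompany the matrix gave the group of each hashtag. Of 5363 columns, 48 were not used, namely 8 without hashtag and 40 doublets called by the authors, and no barcode was shared by groups. Apart from 0, the matrix held no count under 6 reads of *Osm*, 7 of *Il6* and 8 of *Socs3* in a cell, and a lowest count above 1 was found in 2.90% of 16542 genes read in 100 or more cells.

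Kept were the 5263 cells that had at least 500 genes and no more than a 0.4 share of mitochondrial counts. CPM were summed reads of a gene per 1000000 summed reads. For shares, cells were thinned to 38677 reads, a depth that 10% of monocytes and macrophages did not reach. The median depth of the Cd79a class, used as background, was 47382.5 reads per cell before thinning, and that of monocytes and macrophages 97786.5. Groups held 458 to 1087 such cells, and 398 to 987 after thinning. These numbers set the counting error of a share within 1 sample and say nothing on the spread between mice. All 9 genes were named, with at most 4 genes of the highest mean level per list and the 3 genes of the most like pattern for *Osm*, *Il10* and *Socs3*. The members and lists were chosen with earlier results of these data known. Each group was 1 sample, so no test was run. The steps ran in Python 3.11.15 (matplotlib 3.10.9, pandas 2.3.3, scipy 1.17.1, numpy 2.4.6) and were tested on simulated data. Alternatives were tried for normalization, cell filters, gates, thinning and single high cells. Those that leave out cells high in *Arg1*, *S100a8* or *S100a9*, that keep cells of the thinning depth, that set counts under 8 reads to 0 or that use the limit of 250 CPM were chosen after seeing the data. Protein sequences were not used here. Some genes that the rule for named genes picked are not reported here.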

Additional observations from a re-analysis of the deposited data

Results flagged for a closer look

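In 5 places the point value of a ratio in monocytes and macrophages lay on opposite sides of 1 in both genotypes or after both operations, and in none was the difference tested, since each group was 1 sample. The ratio of *Il6* for WT TAC over WT sham was 0.227 (0.207 to 0.25), while it was 1.12 (1.03 to 1.22) in CD3e-/- mice. That of *Il10* was 1.49 (1.21 to 1.83) in WT mice and 0.846 (0.729 to 0.985) in CD3e-/- mice. CD3e-/- over WT mice gave 0.636 (0.580 to 0.698) for *Il6* after sham and 3.13 (2.87 to 3.42) after TAC. The same ratio was 0.846 (0.800 to 0.894) after sham and 1.03 (0.994 to 1.06) after TAC for *Il6st*, and 1.00 (0.977 to 1.03) after sham and 0.868 (0.853 to 0.883) after TAC for *Il10ra*. For *Il6st* and *Il10ra* one of both intervals covers 1, so opposite directions were not shown within counting error. *Il6* and *Il10* had 50% of their reads in 5 or fewer cells of each group. For *Il6st* and *Il10ra* all 4 ratios were short of the 1.5-fold limit.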

How the results depend on the processing

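Of 808 ratios under alternative settings, 583 stayed within the counting interval of the value given above, 223 moved out of it in the same direction and 2 turned direction. The latter were *Il6* in CD3e-/- sham over WT sham, at 0.636 by sums, 1.22 as a mean of single cells and 2.50 with single cells held to the 99th percentile.

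*Osm* in WT TAC over WT sham (1.56) was 1.95 as a mean of single cells, 1.92 with cells held to the 99th percentile, 1.499 with 10 CPM added, 1.5 in cells of the thinning depth, 1.43 with gate limits doubled and 1.29 without cells high in *Arg1*. In CD3e-/- TAC over WT TAC (1.29) it was 1.37 as a mean, 1.43 held, 1.33 with median-of-ratios size factors, 1.35 with doubled gates and 1.33 without cells high in *Arg1*. In CD8-depleted TAC over WT TAC (1.37) it was 1.41 as a mean, 1.46 held, 1.45 with halved and 1.28 with doubled gates, and 1.60 without cells high in *Arg1*. *Stat3* in WT mice (1.56) was 1.62 as a mean, 1.61 held and 1.51 with 10 CPM added, and in CD3e-/- mice (1.56) 1.63 as a mean, 1.65 held, 1.62 with halved and 1.61 with doubled gates.

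The count of members past the fold changed as follows. In WT TAC over WT sham, higher members went from 2 to 1 with 10 CPM added and with doubled gates. In CD3e-/- TAC over CD3e-/- sham, higher members went from 1 to 3 as a mean and held, and lower from 0 to 1 held. In CD3e-/- sham over WT sham, higher members went from 2 to 0 with 10 CPM added and to 1 with doubled gates, and lower from 1 to 0 as a mean, held and with 10 CPM added. In CD3e-/- TAC over WT TAC, higher members went from 1 to 2 as a mean, held and with halved gates. In CD8-depleted TAC over WT TAC, lower members went from 0 to 1 held and with counts under 8 reads set to 0, and to 2 with doubled gates. The share of all genes past the fold under each of these settings is not given here. These counts thus do not show whether the members stood out from other genes. The cause was not tested.

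No paired analysis was possible because each group was 1 sample, and no sample was left out for the same reason. *Il6* and *Il10* are limited by the few cells that held their reads. The absence of low counts limits the shares of cells for *Osm*, *Il6* and *Socs3*. Their counts mostly keep a read after thinning, so thinning hardly matched depth for these genes.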

Other observations

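Outside the gated classes, 596 cells fell in no class. Their *Osm* level was 141, 87.0, 68.2, 121 and 140.4 CPM in WT sham, CD3e-/- sham, WT TAC, CD3e-/- TAC and CD8-depleted TAC, and a list of 4 mast cell genes was highest there, at 10173 CPM. *Stat3* in these cells was 121, 97.9, 199, 218 and 202 CPM, with the TAC groups above the sham groups as in monocytes and macrophages. Among all kept cells, the ratio of *Osm* to WT TAC was 1.48 (1.45 to 1.51) in CD3e-/- TAC and 1.497 (1.47 to 1.53) in CD8-depleted TAC, both short of the fold and larger than within monocytes and macrophages.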
